A study of Mus musculus with 3 samples.

Results

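The genes considered here are 9 long noncoding RNA genes of the mouse, chosen by name: Malat1, Neat1, Gas5, Snhg1, Snhg3, Snhg5, Snhg6, Snhg8 and Snhg12. Of the 9, 2 were measured as genes, out of 31510 genes per library. Gas5 was found by its Ensembl identifier (ENSMUSG00000053332), since its row carries no symbol. Snhg5 was found through a row (ENSMUSG00000032424) whose deposited description gives the earlier name of Snhg5, on the same chromosome and strand. The annotation used here for coordinates lists Snhg5 under another identifier, so this match is less certain than that of Gas5. Malat1, Neat1, Snhg1, Snhg3, Snhg6, Snhg8 and Snhg12 themselves are not analysed here. The small nucleolar RNAs (snoRNAs) that lie inside these host genes have rows of their own, and 23 of the 29 annotated ones were measured: 9 inside Gas5, 8 inside Snhg1, 4 inside Snhg12 and 2 inside Snhg3. They were not among the genes chosen by name and are described because they are the product of the hosts' introns.

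The RNA came from CD-1 mouse blastocysts in delayed implantation, a state in which the embryo waits in the uterus for the mother's ovarian hormones. All mothers, 2 months old, were ovariectomized on day 4 of pregnancy and were given 2 mg progesterone each on days 5 to 7. Dormant blastocysts were flushed from the uterus on day 8; reactivating and reactivated blastocysts came from mothers given estradiol (E2) on day 7 and killed 6 h and 12 h later. Each state was 1 library of more than 3000 pooled blastocysts, so no value has a replicate error, and the day and time of collection changed with the state.

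A snoRNA host gene is transcribed, spliced, and then parted into products with different fates. The snoRNAs are cut from the removed introns and kept in the nucleolus, where those with C and D boxes guide ribose methylation of ribosomal RNA and those with H and ACA boxes guide pseudouridylation. The spliced exons of noncoding hosts such as Gas5 usually reach the cytoplasm, where ribosomes begin to read them and nonsense-mediated decay removes them. Exon reads of such a host therefore count the spliced RNA, and its intron reads count mainly snoRNAs. Gas5 was first described as a transcript that accumulates in growth-arrested cells.

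Intron reads far outnumbered exon reads in Gas5, and the snoRNA genes inside it had many reads in rows of their own, so their sequences are given first. Gas5 lies on the forward strand of chromosome 1 (GRCm38, chr1:161034422-161038539), and the sequences run from its start towards its end. Capitals mark a C box (TGATGA, looked for in the first 20 bases on the RNA's own strand) and a D box (CTGA, the match nearest the end in the last 15 bases). Sequences are those of GENCODE M21.
Gm26224, chr1:161035394-161035473, forward strand: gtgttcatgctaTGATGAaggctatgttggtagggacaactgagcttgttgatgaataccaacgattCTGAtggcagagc
Gm22489, chr1:161035850-161035911, forward strand: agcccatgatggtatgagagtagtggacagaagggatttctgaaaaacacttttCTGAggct
Gm22357, chr1:161036057-161036139, forward strand: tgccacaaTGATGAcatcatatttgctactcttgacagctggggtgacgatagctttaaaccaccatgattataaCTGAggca
Gm23212, chr1:161036682-161036741, forward strand: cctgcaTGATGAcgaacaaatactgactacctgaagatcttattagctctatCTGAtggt
Snord78, chr1:161036984-161037049, forward strand: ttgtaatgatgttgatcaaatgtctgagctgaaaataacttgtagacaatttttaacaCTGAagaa
Mir5117, chr1:161037356-161037439, forward strand: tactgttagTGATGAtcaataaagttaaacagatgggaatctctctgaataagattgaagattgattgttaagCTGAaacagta
Snord80, chr1:161037601-161037681, forward strand: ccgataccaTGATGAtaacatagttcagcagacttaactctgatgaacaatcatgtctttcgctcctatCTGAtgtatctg
Snord47, chr1:161038082-161038158, forward strand: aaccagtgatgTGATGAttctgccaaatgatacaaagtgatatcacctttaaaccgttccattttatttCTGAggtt
Gm25789, chr1:161038308-161038383, forward strand: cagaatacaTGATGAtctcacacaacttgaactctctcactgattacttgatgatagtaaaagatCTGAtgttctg
All 9 held the D box letters and 7 held TGATGA in its window. Among all 701 snoRNA genes measured, which also include H/ACA snoRNAs, 24.1% held the D box and 14.1% the C box in the same windows. A missing match says only that these letters are not in the window.

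From Snhg1 (chromosome 19) and Snhg12 (chromosome 4), 2 snoRNAs each are shown that differed in opposite directions within their host. Gm25855 of Snhg1 and Snora61 of Snhg12 were lower at 12 h than in the dormant library, and Gm22680 of Snhg1 and Snord99 of Snhg12 were higher. Capitals mark the same boxes, and in Snora61 an ACA in the last 8 bases.
Gm25855, chr19:8723993-8724064, forward strand: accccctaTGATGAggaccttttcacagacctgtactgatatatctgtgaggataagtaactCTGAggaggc
Gm22680, chr19:8725341-8725409, forward strand: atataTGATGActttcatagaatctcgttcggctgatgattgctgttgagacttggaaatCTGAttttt
Snora61, chr4:132310240-132310369, forward strand: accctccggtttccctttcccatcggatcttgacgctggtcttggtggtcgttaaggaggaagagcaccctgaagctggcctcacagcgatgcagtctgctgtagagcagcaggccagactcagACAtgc
Snord99, chr4:132310691-132310764, forward strand: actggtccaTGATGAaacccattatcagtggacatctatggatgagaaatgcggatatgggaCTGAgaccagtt

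Gas5 was the higher of the 2 measured hosts in every library. Its exon level was 131 RPKM in the dormant library, 182 RPKM in the reactivating library and 89.0 RPKM in the reactivated library, from 398, 615 and 365 exon reads over 216 bases of exon. RPKM are exon reads scaled to exon length and to the reads of the library. The exact 95% Poisson intervals, which cover counting error only, were 118 to 144, 167 to 196 and 80.1 to 98.6 RPKM and did not overlap. Gas5 was thus highest at 6 h and lowest at 12 h. Among genes with at least 1 RPKM, 97.1%, 97.5% and 95.8% lay below Gas5 in the dormant, reactivating and reactivated libraries. The deposited model of Gas5 is shorter than the annotated gene (1144 against 4118 bases), so these ranks rest on part of it.

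A gene was called higher or lower when its log2 difference of RPKM + 1 was at least 1 in size and it had at least 1 RPKM in the higher library. Gas5 was lower in reactivated than in reactivating blastocysts by this rule, with a log2 difference of -1.02 and an exon read ratio of 0.490 (95% interval 0.430 to 0.559). The rule called 11.4% of the 12065 genes compared between these libraries, 3.82% higher and 7.63% lower, and 7.10% of the genes had a smaller (more negative) difference than Gas5. The call stood just past the threshold: scaling by the median ratio over genes gave -0.89, and by the upper quartile or the total of nuclear protein-coding and lncRNA genes -0.92, and each ended it. Median-ratio scaling also gave 625 higher and 707 lower over all genes, where RPKM gave 461 higher and 920 lower. Scaling to exon reads without length (CPM) gave 519 higher and 1546 lower.

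Against the dormant library neither difference of Gas5 passed the rule. Reactivating blastocysts had a log2 difference of 0.47 (exon read ratio 1.39, 95% interval 1.22 to 1.58), with 88.6% of genes below it. Reactivated blastocysts had a log2 difference of -0.55 (ratio 0.682, 0.590 to 0.788), with 22.0% of genes below it. The rule called 5.75% of 12126 genes in the first comparison (2.68% higher, 3.07% lower) and 12.9% of 12037 genes in the second (5.27% higher, 7.66% lower). In pooled embryos, fewer cells of a type and less RNA per cell cannot be told apart.

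Reads across exon junctions, which come only from spliced RNA, followed the same order. Gas5 had 143 junction reads in the dormant library, 270 in the reactivating library and 126 in the reactivated library, or 10.1, 17.2 and 6.64 RPM (reads scaled to the same library totals as RPKM, without length). Junction reads were 1.70 times as frequent in reactivating as in dormant blastocysts (1.38 to 2.10). They were 0.386 times as frequent in reactivated as in reactivating blastocysts (0.310 to 0.478). Opposite-strand reads numbered 1, 0 and 1, so the values carry almost nothing from the other strand.

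Snhg5 showed another order, lowest in the dormant library and highest at 12 h. Snhg5 is annotated on the reverse strand of chromosome 9 (GRCm38, chr9:88521050-88522929). Its exon level was 12.9 RPKM in the dormant library, 14.4 RPKM in the reactivating library and 22.9 RPKM in the reactivated library, from 179, 222 and 427 reads. The counting intervals of the dormant library (11.1 to 14.9 RPKM) and the reactivating library (12.6 to 16.4 RPKM) overlapped, and that of the reactivated library (20.7 to 25.1 RPKM) stood above both.

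No difference of Snhg5 passed the rule. Reactivated against dormant blastocysts gave a log2 difference of 0.78 (exon read ratio 1.77, 1.49 to 2.12), above 91.2% of genes. Reactivated against reactivating blastocysts gave 0.63 (ratio 1.59, 1.35 to 1.88), above 90.0% of genes. Reactivating against dormant blastocysts gave 0.15 (ratio 1.12, 0.913 to 1.37), within counting error. Junction reads were few, 27, 41 and 75 in the dormant, reactivating and reactivated libraries, and 2.07 times as frequent in reactivated as in dormant blastocysts (1.31 to 3.34). With 1 RPM added, the log2 difference of junction reads was 0.77; scaled to the junction reads of all genes in place of the library total it was 1.003, past the threshold.

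**Figure D1:**
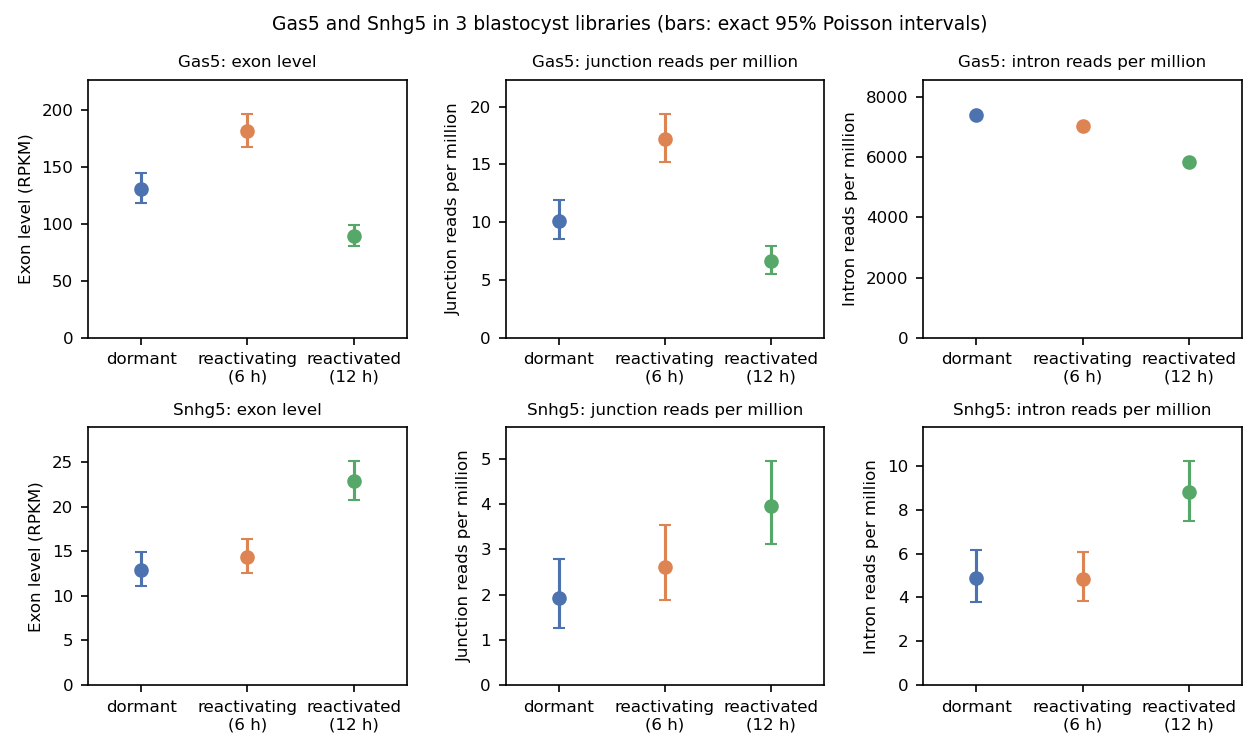
Gas5 (upper row) and Snhg5 (lower row) in the dormant, reactivating (6 h) and reactivated (12 h) libraries. The vertical axes give the exon level in RPKM, junction reads and intron reads in RPM; points are 1 library each and bars are exact 95% Poisson intervals. Exon and junction reads of Gas5 were highest at 6 h, its intron reads lay between 5834 and 7401 RPM, and Snhg5 was highest at 12 h in all 3 measures.

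Introns and exons of Gas5 gave very different read numbers. Intron reads numbered 104488 in the dormant library, 110171 in the reactivating library and 110744 in the reactivated library, which is 99.6%, 99.4% and 99.7% of its exon and intron reads. In RPM they were 7401, 7023 and 5834. The intron read ratio was 0.949 for reactivating against dormant blastocysts, where the exon read ratio was 1.39, and 0.788 for reactivated against dormant blastocysts. Exon reads of Gas5 were highest in the reactivating library. For intron reads the order depended on the total: in RPM they were highest in the dormant library, and scaled to the intron reads of all genes they were highest in the reactivating library (log2 0.11 for reactivating against dormant blastocysts, against -0.08 in RPM).

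Snhg5 had no such excess. Its intron reads numbered 69, 76 and 167 in the dormant, reactivating and reactivated libraries, 27.8%, 25.5% and 28.1% of its exon and intron reads. The 2 snoRNA genes annotated inside Snhg5 have no measured row here. Its intron reads were 1.80 times as frequent in reactivated as in dormant blastocysts (1.35 to 2.42), close to the exon read ratio of 1.77.

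The deposited gene model of Gas5 spans 1144 bases, against 4118 bases in GENCODE M21. Reads of the first 3 snoRNA genes of Gas5 (Gm26224, Gm22489 and Gm22357, together spanning 746 bases) summed to 101591, 107367 and 106234 in the dormant, reactivating and reactivated libraries. These sums equal 97.2%, 97.5% and 95.9% of the intron reads of Gas5. This run of snoRNAs was picked after its values were seen, and another run, from Gm22489 to Gm23212, gave 99.1%, 103% and 107%. Reads of all 9 summed to 160128, 198679 and 265176.

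Other hosts with rows give a scale for these shares. Zfas1, a noncoding host of C/D snoRNAs that was not among the 9 chosen genes, had 41.6, 58.9 and 37.7 RPKM in the dormant, reactivating and reactivated libraries. Like Gas5 it was highest at 6 h in exons, and no difference passed the rule. Its intron reads were 767, 872 and 1131 RPM and made up 97.7%, 97.1% and 98.5% of its reads; they were 1.47 times as frequent in reactivated as in dormant blastocysts, where the exon read ratio was 0.907 (0.767 to 1.07). Among 26 protein-coding hosts, 19 had more intron than exon reads in any given library and 18 in all 3, with a median intron share of 90.2%, 80.9% and 82.2%. The median over genes with introns and at least 1 RPKM was 25.2%, 24.1% and 23.6%.

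The 26 protein-coding hosts code mostly for ribosomal proteins and factors of translation and ribosome assembly. By the rule on exon levels, 0 were higher and 1 was lower in reactivating than in dormant blastocysts, with a median log2 difference of 0.01 against 0.06 over all genes. Rpl7a, a ribosomal protein gene, was the lower one (log2 -1.01, 2.08 against 5.19 RPKM); such genes have near-identical processed copies, so this value is uncertain. In reactivated against dormant blastocysts 1 was higher and 0 lower (median 0.12 against -0.07 over all genes). Eif4a1, a helicase of translation initiation, was the higher one (log2 1.002, 23.4 against 11.2 RPKM). In reactivated against reactivating blastocysts 1 was higher and 0 lower (median 0.05 against -0.13). Ncl, which encodes the nucleolar protein nucleolin, was the higher one (log2 1.65, 26.3 against 7.71 RPKM). Over all genes the rule called 5.75%, 12.9% and 11.4% in these comparisons, in the same order, so 1 call among 26 does not stand out.

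The 23 snoRNA genes took 3.31% of exon reads in the dormant library, 2.87% in the reactivating library and 3.19% in the reactivated library. All 701 snoRNA genes took 13.6%, 10.0% and 11.1%, and the 23 were 24.3%, 28.6% and 28.9% of that. They are 60 to 136 bases long, apart from the 205 bases of each snoRNA of Snhg3. That is near the read length of 50 bases, so their RPKM are not set against those of long genes here.

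Summed per host, the snoRNAs did not move together. The 9 of Gas5 had 1.12 times as many reads, scaled to library totals, in reactivating as in dormant blastocysts (1.11 to 1.12) and 1.23 times in reactivated as in dormant blastocysts (1.22 to 1.24). The 8 of Snhg1 had 0.567 times (0.562 to 0.572) and 0.759 times (0.753 to 0.765). The 4 of Snhg12 had 0.672 times (0.658 to 0.686) and 0.642 times (0.629 to 0.655). The 2 of Snhg3 had 1.26 times (1.21 to 1.31) and 0.869 times (0.832 to 0.907). The intervals cover counting error only, and a sum is led by its most abundant snoRNA.

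In Gas5 the order of the snoRNAs changed between states. Gm22489 led in the dormant library with 48.3% of the reads of the 9, and held 34.5% in the reactivating library and 25.5% in the reactivated library. Its level was 88392, 70565 and 57496 RPKM in that order. Snord47 held 16.6%, 24.3% and 33.8%, with levels of 24446, 39937 and 61303 RPKM. Gm22489 was thus the most abundant snoRNA of Gas5 in the dormant and reactivating libraries and Snord47 in the reactivated library. Reads of Snord47 were 2.51 times as frequent in reactivated as in dormant blastocysts (2.47 to 2.54), and those of Gm22489 0.650 times (0.644 to 0.657).

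**Figure D2:**
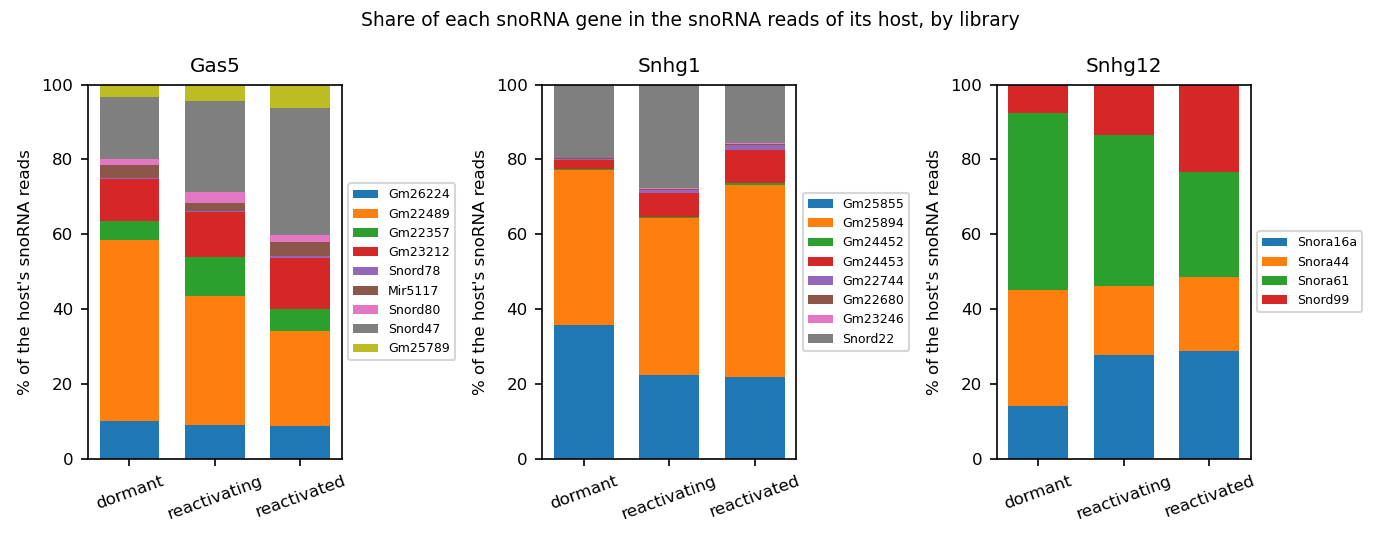
Share of each snoRNA gene in the summed snoRNA reads of its host, in percent, in the dormant, reactivating and reactivated libraries, for Gas5, Snhg1 and Snhg12. The share of Gm22489 in Gas5 is 48.3% in the dormant library and 25.5% in the reactivated library, and that of Snord47 is 16.6% and 33.8%.

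The other 7 snoRNAs of Gas5 took different courses. Gm23212, Snord78 and Gm25789 were higher at each step, as was Snord47. Gm26224 differed little, with 14260, 14338 and 15264 RPKM, and its ratio of reactivating to dormant was within counting error (1.01, 0.984 to 1.03). Snord78 had 396, 571 and 1200 RPKM and Gm25789 had 5095, 7287 and 11595 RPKM in the dormant, reactivating and reactivated libraries. Gm22357 and Snord80 were highest at 6 h, as the exons of Gas5 were: Gm22357 had 6920, 15930 and 9767 RPKM, and Snord80 had 2093, 4457 and 3320 RPKM. Mir5117, which has a microRNA symbol but is annotated as a snoRNA gene, was lowest at 6 h, with 4792, 3256 and 6378 RPKM.

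**Figure D3:**
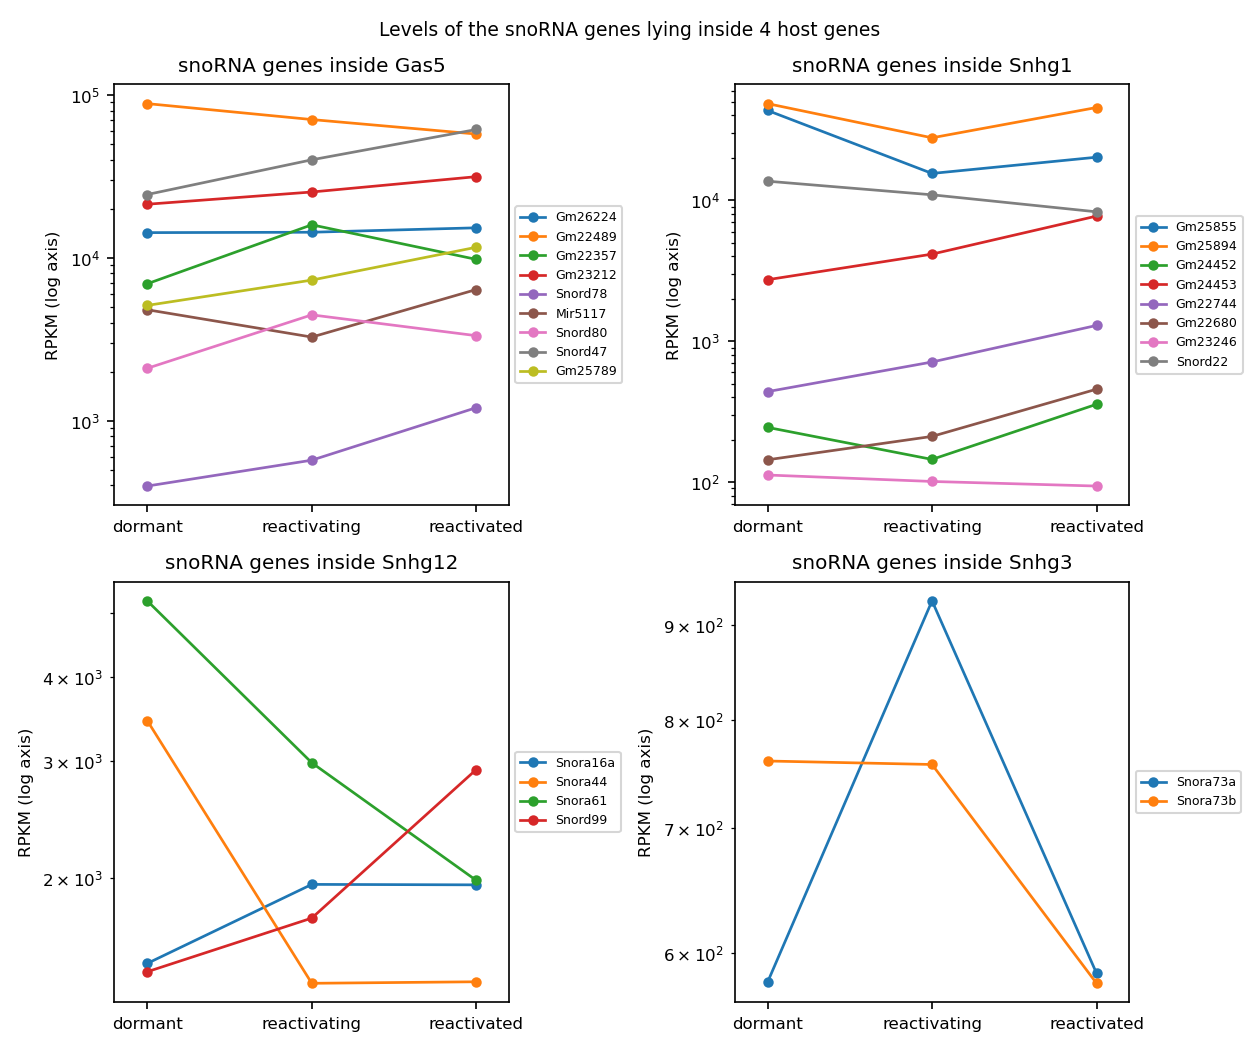
Levels of the 23 snoRNA genes inside Gas5, Snhg1, Snhg12 and Snhg3 in the dormant, reactivating and reactivated libraries, in RPKM on log axes, 1 line per snoRNA gene. Within Gas5, Gm22489 stands at 57496 RPKM and Snord47 at 61303 RPKM in the reactivated library, and within Snhg12 the lines of Snora61 and Snord99 cross.

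In Snhg1 the leading pair of snoRNAs was lowest at 6 h. Gm25894 had 48567, 27773 and 45577 RPKM in the dormant, reactivating and reactivated libraries, and Gm25855 had 43443, 15509 and 20224 RPKM. Gm25855 was lower by the rule in reactivating than in dormant blastocysts (log2 -1.49, ratio 0.357, 0.351 to 0.363) and in reactivated than in dormant blastocysts (log2 -1.10, ratio 0.466, 0.459 to 0.473). Snord22 had 13665, 10939 and 8281 RPKM, lower at each step. The less abundant Gm24453 (2730, 4147 and 7725 RPKM), Gm22744 (438, 711 and 1293 RPKM) and Gm22680 (144, 211 and 456 RPKM) were higher at each step. One host thus held snoRNAs of both directions.

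Snhg12 was mixed as well. Of its H/ACA snoRNAs, Snora61 had 5211, 2979 and 1984 RPKM and Snora44 had 3445, 1391 and 1398 RPKM in the dormant, reactivating and reactivated libraries. Snora16a had 1489, 1957 and 1954 RPKM. The C/D snoRNA Snord99 had 1447, 1742 and 2910 RPKM and was 2.01 times as frequent in reactivated as in dormant blastocysts (1.89 to 2.13). Its log2 difference of 1.01 was just past the threshold, and CPM gave 0.95 and ended the call.

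Snhg3 holds Snora73a and Snora73b, H/ACA snoRNAs that act in cleavage of the ribosomal RNA precursor rather than in its modification. Snora73a had 579, 927 and 585 RPKM and Snora73b had 760, 757 and 578 RPKM. They are identical at 198 of 205 aligned bases (96.6%) and share stretches of 50 bases, so the split of reads between them is uncertain. Their summed reads were 3876, 5415 and 4526.

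By the rule, 2 of the 23 snoRNAs were higher and 2 lower in reactivating than in dormant blastocysts, against 6.16% higher and 37.3% lower (43.5% in all) of the 292 snoRNA genes compared. Gm22357 (log2 1.20) and Snord80 (1.09) were higher, and Gm25855 (-1.49) and Snora44 (-1.31) were lower. The median was 0.25 over the 23, -0.64 over all snoRNA genes and 0.06 over all genes. All snoRNA genes were compared from 1 RPKM, which is only a few reads on a gene this short. Of the 23, 22 had at least 200 reads in a library. The shares and medians are therefore set side by side at unlike depth, here and in the other comparisons.

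In reactivated against dormant blastocysts 7 were higher and 3 lower, against 15.5% higher and 36.0% lower (51.5% in all) of 297 snoRNA genes. The higher ones were Gm22680 (log2 1.66), Snord78 (1.60), Gm22744 (1.56), Gm24453 (1.50), Snord47 (1.33), Gm25789 (1.19) and Snord99 (1.01). The lower ones were Snora61 (-1.39), Snora44 (-1.30) and Gm25855 (-1.10). The median was 0.41 over the 23 and -0.46 over all snoRNA genes.

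In reactivated against reactivating blastocysts 3 were higher and 0 lower, against 16.1% higher and 7.30% lower (23.4% in all) of 274 snoRNA genes. These were Gm24452 (log2 1.29), Gm22680 (1.11) and Snord78 (1.07). The median was 0.31 over the 23, 0.18 over all snoRNA genes and -0.13 over all genes. Of the 23, 22 had at least 200 reads in a library; Gm23246 had 106 reads in the dormant and in the reactivating library and 119 in the reactivated one. Scaling to the total of snoRNA reads moved all snoRNA differences alike and left 6 higher and 1 lower in reactivating against dormant blastocysts, and 1 higher in reactivated against reactivating blastocysts.

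**Figure D4:**
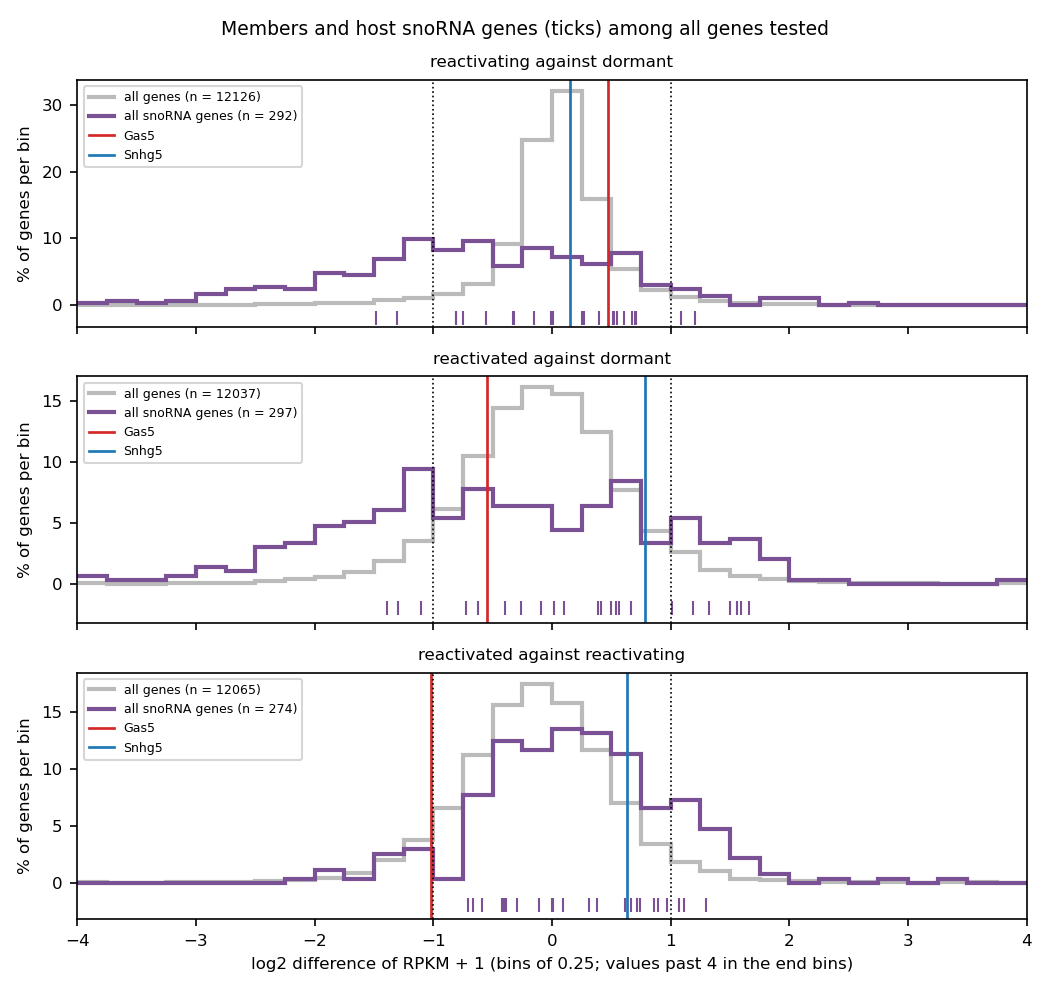
Distribution of log2 differences of RPKM + 1 over all genes (grey) and all snoRNA genes (purple line), in percent of genes per bin, for the 3 comparisons. Vertical lines mark Gas5 (red) and Snhg5 (blue), ticks mark the 23 host snoRNA genes, and dotted lines mark the threshold of 1; Gas5 lies at -1.02 in the comparison of reactivated with reactivating blastocysts, and 7 ticks pass 1 in that of reactivated with dormant blastocysts.

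Base composition moved with these differences. Across the 23 snoRNAs, the Spearman correlation between GC content and the log2 difference was -0.77 for reactivated against dormant blastocysts, -0.78 for reactivated against reactivating blastocysts and -0.30 for reactivating against dormant blastocysts. Across all snoRNA genes it was -0.46 (n = 297), -0.48 (n = 274) and -0.23 (n = 292) in the same order. With length the 23 gave -0.42, -0.55 and -0.01, and all snoRNA genes gave -0.48, -0.35 and -0.33. The points share their 3 libraries, and comparisons share a library, so these are descriptions. Snord78, with 28.8% GC, had a log2 difference of 1.60 in reactivated against dormant blastocysts, and Snora61, with 57.7% GC, had -1.39. GC content and length also went with the class of snoRNA. Among the 23, the H/ACA snoRNAs had 47.1% to 57.7% GC and 129 to 205 bases. The C/D snoRNAs had 28.8% to 51.6% GC and 60 to 126 bases. The part of GC content, length, class or library preparation in the results was not tested.

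**Figure D5:**
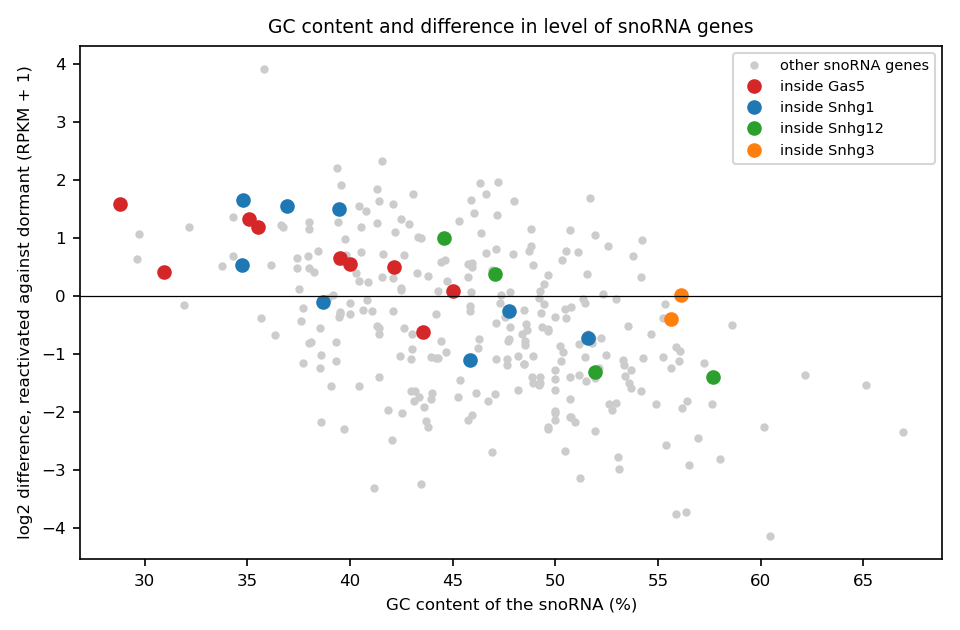
GC content of snoRNA genes (horizontal axis, percent) and the log2 difference of RPKM + 1 of reactivated against dormant blastocysts (vertical axis), 1 point per snoRNA gene, with the 23 inside Gas5, Snhg1, Snhg12 and Snhg3 in colour. Points slope downwards, from Snord78 (28.8% GC, 1.60) to Snora61 (57.7% GC, -1.39).

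Genes for proteins that bind snoRNAs and for those that degrade spliced host RNA were described as lists. Of 18 genes for snoRNA-protein cores and their assembly, 0 were higher and 0 lower in reactivating than in dormant blastocysts. The rule called 5.75% of all genes there. In reactivated blastocysts 2 were higher than in dormant ones, and 1 was higher than in reactivating ones. Over all genes the rule called 5.27% and 3.82% higher in these comparisons, and the list is small. Nop10, an H/ACA core protein gene, had 34.6, 51.6 and 76.8 RPKM in the dormant, reactivating and reactivated libraries (log2 1.13 for reactivated against dormant). Znhit3, an assembly factor of C/D particles, had 14.0, 18.3 and 43.2 RPKM (log2 1.57 against dormant and 1.19 against reactivating). Fbl, the methyltransferase of C/D particles, had 3.23, 6.09 and 6.99 RPKM and did not pass. The list's medians were 0.22, 0.51 and 0.34 in the 3 comparisons (reactivating with dormant, reactivated with dormant, reactivated with reactivating), beside 0.06, -0.07 and -0.13 over all genes.

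Of 14 genes of nonsense-mediated decay, 0 passed the rule in any of the 3 comparisons, with medians of 0.03, 0.02 and -0.05. Magoh, a subunit of the exon junction complex, came nearest with 16.6, 17.2 and 33.0 RPKM in the dormant, reactivating and reactivated libraries (log2 0.95 for reactivated against dormant). Of 8 genes of the nuclear exosome and RNA trimming, 0 passed, with medians of -0.04, 0.18 and 0.29. Over all genes the rule called 5.75%, 12.9% and 11.4% in the same comparisons, with medians of 0.06, -0.07 and -0.13. In lists this small, 0 passing does not show that the genes were stable.

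By pattern, the genes nearest to Gas5 over the 3 libraries were Prpsap1, Baiap2l1 and Dcaf8. Likeness was the distance between pairs of log2 differences against the dormant library, among 5157 named genes with at least 5 RPKM in each library. Their distances were 0.026, 0.028 and 0.028. Prpsap1 had 20.2, 28.5 and 13.3 RPKM in the dormant, reactivating and reactivated libraries. A peak at 6 h is common: of 5952 genes with at least 5 RPKM in all libraries, 2182 (36.7%) were highest in the reactivating library.

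The libraries held 9298675, 10364607 and 12941447 exon reads in the dormant, reactivating and reactivated states. Markers of trophectoderm (7 of 7), epiblast (5 of 5) and primitive endoderm (5 of 5) were at 1 RPKM or more in each library. Uterine epithelium markers reached it for 3 of 7 genes in each, and summed to 70.3, 70.9 and 26.5 RPKM in the dormant, reactivating and reactivated libraries. Blood and immune markers reached it for 3, 2 and 1 of 7, with Hba-a1 listed at 0 throughout, and summed to 18.8, 14.9 and 5.06 RPKM. Trophectoderm markers summed to 1210, 1191 and 937 RPKM, epiblast markers to 130, 176 and 165 RPKM and primitive endoderm markers to 196, 211 and 97.7 RPKM. The part of these in the values of Gas5, Snhg5 and the snoRNAs was not tested.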

How the data were processed

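RNA was depleted of ribosomal RNA and sequenced as single-end reads of 50 bases on the SOLiD platform (labels' protocols). For each of 3 libraries the authors deposited read counts per gene, split per the file headers into exon, intron, exon junction and opposite-strand reads. The authors also deposited RPKM, per the file headers. The build is GRCm38 per the submitters' processing notes, and no source used here names the aligner, the counter or the annotation. RPKM followed from exon reads within 2%, except for 1 gene in the reactivated library, with library totals of 14118723 (dormant), 15687239 (reactivating) and 18982195 (reactivated). At these totals 3 reads on 1 kb are 0.212, 0.191 and 0.158 RPKM.

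Coordinates, biotypes and snoRNA sequences came from GENCODE M21 (GRCm38), which held 26687 identifiers (84.7%). A snoRNA row belonged to a host when it lay inside it on the same strand. Differences are log2((RPKM + 1)/(RPKM + 1)), which makes changes of low genes look smaller. No test, SD or p-value was possible with 1 library per state. Counts have exact Poisson intervals, ratios of counts exact binomial intervals and shares Wilson intervals, all at 95% and for counting error only; without molecular identifiers, reads are not independent molecules. The 3 comparisons share libraries.

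Named genes were the 9 members, list genes past the rule or the 2 with the largest difference, and the 3 nearest patterns; H19, Tug1 and Meg3 were added after their values were seen. The members and lists were chosen with earlier results of these data known; the snoRNA rows and their sequences were added after seeing the files. The scripts were tested on simulated counts, with changes placed only in genes with longer exons than Gas5 and the host snoRNAs. That run does not cover calls on genes as short as these. Alternatives were other pseudocounts, minimum levels, scalings and junction reads. Python 3.11.15, pandas 2.3.3, NumPy 2.4.6 and SciPy 1.17.1 were used.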

Additional observations from a re-analysis of the deposited data

How the results depend on the processing

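The log2 differences of Gas5 and Snhg5 kept their sign in 9 of 9 alternatives in each of the 3 comparisons. Of these, the changes of minimum level leave the log2 difference of a gene as it is, so they could not change the sign for Gas5 or Snhg5. The pseudocount of 0.1 changes the size of a difference but could not change its sign either. The log2 difference of Gas5 between reactivated and reactivating blastocysts ran from -1.29 to -0.89. With median-ratio scaling (-0.89), upper-quartile scaling (-0.92) and a total of nuclear protein-coding and lncRNA genes (-0.92) the count of called members was 0 rather than 1. With junction reads scaled to all junction reads it was 1 rather than 0 for reactivated against dormant blastocysts (Snhg5), and with junction reads scaled to library totals, an alternative added after seeing the data, it was 0. Scaled to intron reads, the Gas5 intron difference was 0.11 for reactivating against dormant blastocysts (-0.08 when scaled to all reads), -0.080 for reactivated against dormant (-0.34) and -0.19 for reactivated against reactivating (-0.27), so the sign of the first depends on the total used. Over all genes, a pseudocount of 0.1 gave 1215 called genes rather than 697 for reactivating against dormant, 2589 rather than 1556 for reactivated against dormant and 2374 rather than 1381 for reactivated against reactivating; a minimum of 5 RPKM gave 316 and 900 in the first and last. CPM gave 680 higher and 1472 lower for reactivated against dormant, where RPKM gave 634 and 922. Of the host snoRNAs, scaling to snoRNA reads called 7 rather than 4 for reactivating against dormant and 1 rather than 3 for reactivated against reactivating, where median-ratio and upper-quartile scaling called 5 each. Host snoRNA calls were lost for Snord80 (0.99, upper quartile) and Snora44 (-0.87, snoRNA total) in reactivating against dormant, for Snord99 (0.95, CPM) and Gm25855 (-0.85, snoRNA total) in reactivated against dormant, and for Snord78 (0.88) and Gm22680 (0.92) in reactivated against reactivating (snoRNA total). The median of all genes shifted by 0.11 with median-ratio scaling and by -0.16 with the snoRNA total in the last comparison, and by 0.38 and 0.21 with the snoRNA total in the others. Intron reads less snoRNA reads were not run, since no source used here gives the coordinates of the deposited gene models. No paired analysis was possible because each state has 1 library. Scalings of snoRNA rows were chosen after seeing the data; the cause of the changed calls was not tested.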

Other observations

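Paraspeckles, nuclear bodies built on Neat1, need proteins such as Sfpq. Of 19 paraspeckle protein genes compared, of 20 in the tables, 0 passed the size rule in any of the 3 comparisons. Over all genes the rule called 5.75% (reactivating with dormant), 12.9% (reactivated with dormant) and 11.4% (reactivated with reactivating). Tardbp had 8.58, 8.32 and 15.6 RPKM and Sfpq had 13.0, 13.7 and 21.2 RPKM in the dormant, reactivating and reactivated libraries. Among 11 nuclear speckle protein genes, the body in which Malat1 resides, 2 were higher in reactivated than in dormant and than in reactivating blastocysts, where the rule called 5.27% and 3.82% of all genes higher. Both encode splicing factors of the SR family. Srsf7 had 30.1, 32.4 and 74.9 RPKM (log2 1.29 against dormant and 1.19 against reactivating), and Srsf3 had 7.15, 8.06 and 17.5 RPKM (log2 1.18 and 1.03). The medians of the 11 genes in these comparisons were 0.06 and 0.07, beside -0.07 and -0.13 over all genes. Some other genes of the list had negative differences for reactivated against dormant blastocysts, and 0 passed the rule as lower. The list is small.

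Other noncoding RNAs differed in course. H19, an imprinted noncoding RNA, stood above Gas5 per base of deposited exon. It had 703, 757 and 571 RPKM in the dormant, reactivating and reactivated libraries. Its intron reads were 20, 18 and 17. Tug1 had 15.03, 15.3 and 15.2 RPKM, near Snhg5 in the dormant and reactivating libraries. Meg3, another imprinted noncoding RNA, had 6.35, 4.71 and 3.30 RPKM. H19, Tug1 and Meg3 passed the rule in no comparison. Terc, the RNA of telomerase and itself an H/ACA RNA, had 67.8, 39.9 and 14.1 RPKM and was lower in reactivated than in dormant (log2 -2.19) and than in reactivating blastocysts (log2 -1.44). Rnu12, an RNA of the minor spliceosome, had 52.1, 54.9 and 16.4 RPKM, with log2 differences of -1.61 and -1.68. Rn7sk, which holds the elongation factor P-TEFb inactive, had 14397, 22306 and 21488 RPKM, with no difference past the rule.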
